A study of Mus musculus with 16 samples.

Results

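The genes described here are the mouse receptors for the Fc part of IgG, their shared signalling chain and a receptor-like relative. The 7 members were taken by symbol: the activating receptors Fcgr1, Fcgr3 and Fcgr4, the signalling chain Fcer1g, the inhibitory receptor Fcgr2b, the neonatal Fc receptor Fcgrt and the receptor-like gene Fcrls. All 7 were found among the 30819 genes of the expression matrix, and all 7 passed the filter on low values in every comparison. RNA was sequenced from macrophages and monocytes sorted from MN/MCA1 tumours, a transplantable mouse sarcoma, 21 days after injection of the tumour cells. Hosts were C57BL/6J mice, either wild type or C3 knockout, with no age or sex given. Macrophages and monocytes came from the same animals, 4 wild-type mice (numbers 1 to 4) and 4 C3 knockout mice (numbers 6 to 9), which gave 4 groups of 4 libraries. The sort took CD45+ CD11b+ cells without Ly6G or CD11c, and divided them into Ly6C+ F4/80- monocytes and Ly6C- F4/80+ macrophages. The C3 deletion is carried by the host, and whether the injected tumour cells make C3 was not measured here.

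Fc gamma receptors bind IgG that coats a particle or forms immune complexes. Fcgr1, Fcgr3 and Fcgr4 signal through the Fcer1g chain, whose activation motif recruits the kinase Syk and starts phagocytosis and cytokine release. Fcgr2b carries an inhibitory motif that recruits the phosphatase SHIP-1 and raises the threshold of the activating receptors. Fcgrt encodes the heavy chain of FcRn, which works inside endosomes with beta-2 microglobulin and returns IgG and albumin to the surface. Fcrls encodes a receptor-like scavenger protein of the same family that is best known as a marker of microglia and of some resident macrophages. In tumours, these receptors help to set how myeloid cells respond to antibody-coated tumour cells.

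Levels are given as normalized reads, which are reads recovered from the deposited values divided by the size factor of the library. Reads recovered per library ran from 18689330 to 29049253, and the 7 genes together took 0.320% to 0.435% of them. Differences are on the deposited log2 scale, a regularized logarithm that understates fold changes, and were tested with limma. A gene was called where the Benjamini-Hochberg adjusted p over all genes tested was under 0.05. C3 itself checked the labels: its mean was 1234 normalized reads in knockout and 4008 in wild-type macrophages, and 4925 against 15158 in monocytes, with no overlap in either cell type. The C3 reads that remained in knockout cells were 30.8% and 32.5% of the wild-type means. Sorting markers followed the gates, with mean Adgre1 (F4/80) at 27261 in wild-type macrophages and 5929 in wild-type monocytes, and mean Ly6c2 at 10.3 and 16215. Itgax, the gene of CD11c, had a mean of 6201 in wild-type macrophages although the gate left out CD11c+ cells. In bulk RNA of sorted cells, fewer cells of a kind and less RNA per cell cannot be told apart.

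The coding sequences show which of these genes can be told apart by reads. Among the receptors, Fcgr2b and Fcgr3 were the pair that shared stretches of 50 bases (166 of the 974 words of that length in Fcgr2b and of the 755 in Fcgr3). No other pair among Fcgr1, Fcgr2b, Fcgr3, Fcgr4 and Fcrls shared a word of that length. The longest identical run, 129 bases from 2 coding exons, lies on the minus strand of GRCm38 at chr1:170966674-170968081 in Fcgr2b and chr1:171054167-171057792 in Fcgr3, and a read inside it fits either gene. It is shown because the Fcgr2b and Fcgr3 values depend on how such reads were counted, which is not given in the sources used here.
Fcgr2b and Fcgr3 shared run: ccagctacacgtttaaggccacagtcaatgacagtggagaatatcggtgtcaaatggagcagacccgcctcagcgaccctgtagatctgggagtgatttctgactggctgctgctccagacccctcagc

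Activating and inhibitory function differ by short motifs near the end of the coding sequence. The Fcer1g codons below cover codons 62 to 82 of 86, at chr1:171229880-171230081 on the minus strand across 2 exons. Capitals mark the tyrosine codons and the leucine codons of the activation motif. The Fcgr2b codons cover codons 314 to 325 of 340, at chr1:170961062-170961097 on the minus strand in 1 exon. There, capitals mark the isoleucine, tyrosine and leucine codons of the inhibitory motif.
Fcer1g activation motif: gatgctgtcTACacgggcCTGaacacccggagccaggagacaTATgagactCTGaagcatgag
Fcgr2b inhibitory motif: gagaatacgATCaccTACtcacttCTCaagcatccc

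In the promoters, the 250 bases before the RefSeq start (GRCm38.p6) were searched for GAGGAAG on both strands, the purine-rich core bound by PU.1 in myeloid genes. This word was chosen after the promoters had been seen. All 7 genes had an entry, and the word or its reverse complement CTTCCTC occurred in 4 of them, Fcgr1, Fcgr3, Fcgr4 and Fcrls, against 10.4% of 27025 promoters of the same length. Each stretch below is written on the strand of its gene, with the match in capitals. The Fcgr1 stretch is chr3:96294006-96294035 (minus), the Fcgr4 stretch chr1:171018893-171018922 (plus) and the Fcrls stretch chr3:87263649-87263678 (minus). For Fcgr3 the stretch of the upstream start is chr1:171059404-171059420 (minus). The match began 56 bases before the start in Fcgr1, 7 in Fcgr3, 23 in Fcgr4 and 144 in Fcrls. A match describes the letters only.
Fcgr1: tggcaacttcCTTCCTCttttctaatcttg
Fcgr3: agtccatttcCTTCCTC
Fcgr4: aggctatttaCTTCCTCtcttctagtcaaa
Fcrls: agtctgtaaaGAGGAAGgacgtttgctttt

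Between the cell types, the signalling receptors were higher in monocytes and the remaining pair was higher in macrophages. In wild-type mice, Fcgr1, Fcgr3, Fcgr4 and Fcgr2b were lower in macrophages by 0.31 to 0.51 on the log2 scale, while Fcgrt and Fcrls were higher by 1.59 and 4.06. Thus 6 of 7 members were called, 4 lower and 2 higher, where 63.4% of all 12769 genes were called (31.7% higher and 31.7% lower). In knockout mice 6 of 7 were again called, with Fcer1g in place of Fcgr4, where 60.5% of 12772 genes were called (31.0% higher and 29.6% lower). The groups did not overlap for 6 of 7 members in wild type and 5 of 7 in knockout, beside 57.6% and 55.2% of all genes. Between the genotypes, 1 of 7 members was called in macrophages, Fcrls, where 5.70% of 12568 genes were called, and 0 of 7 by limma in monocytes, where 3.32% of 12867 genes were called. In monocytes 2 members, Fcgr2b and Fcgrt, had an unadjusted p under 0.05, and the voom fit and the authors' deposited table called 0 as well.

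**Figure D1:**
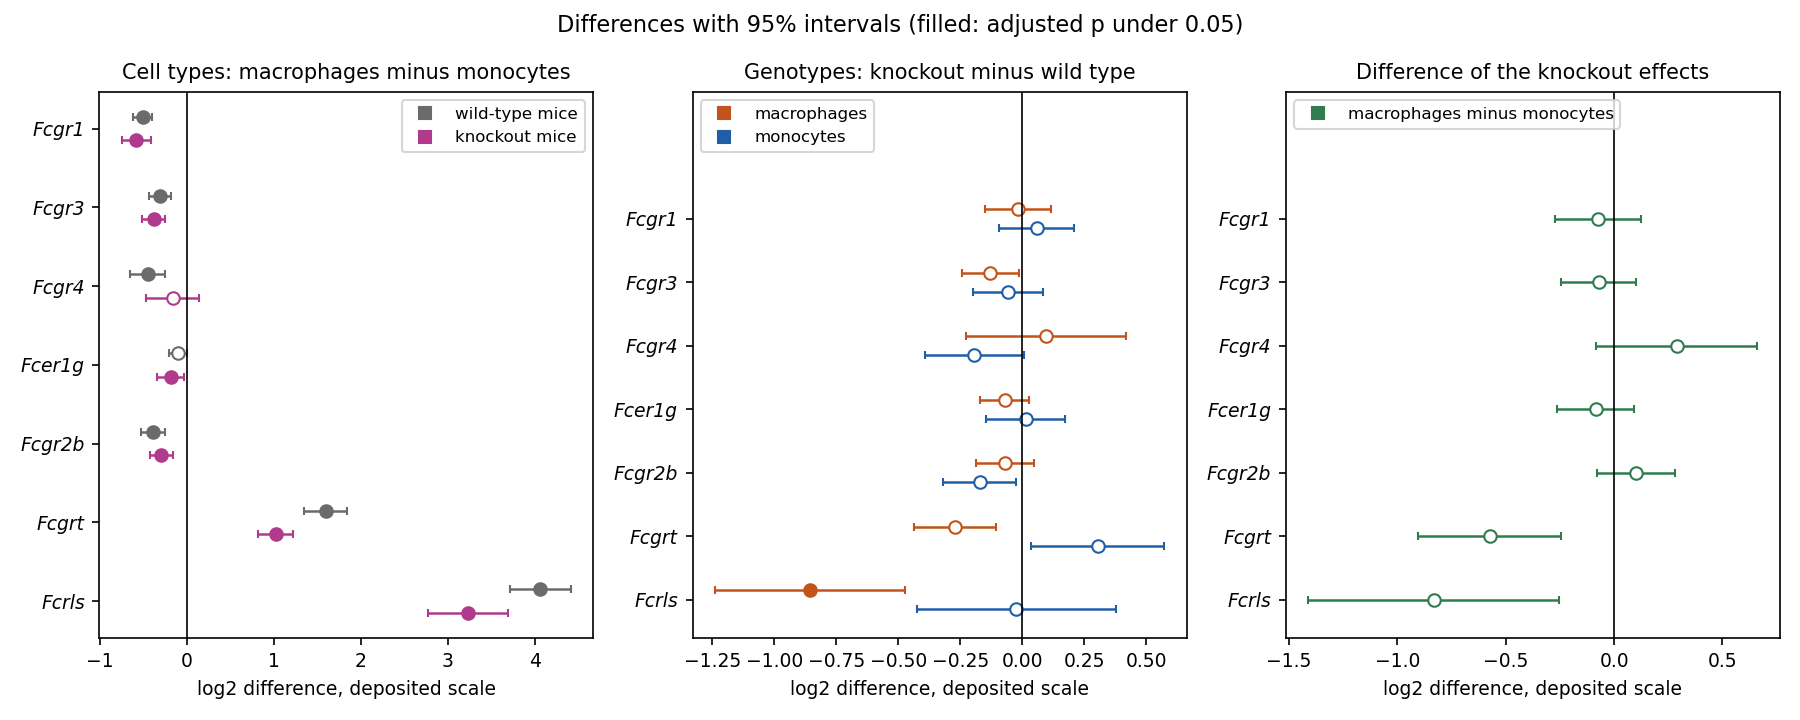
Log2 differences on the deposited scale (x axis) with 95% intervals for the 7 genes (y axis), as macrophages minus monocytes (left), knockout minus wild type (middle) and the difference of the knockout effects (right), with filled points for an adjusted p under 0.05. Fcrls stands apart at 4.06 and 3.23 between cell types and at -0.86 between genotypes in macrophages.

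Fcgr1 encodes the high-affinity receptor, which binds single IgG molecules. In wild-type mice it had 7283, 7460, 7000 and 6838 normalized reads in macrophages and 11414, 12596, 12504 and 10496 in monocytes. Knockout mice had 5967, 6798, 8206 and 7325 in macrophages and 12625, 10563, 13358 and 13167 in monocytes. Every monocyte library lay above every macrophage library. Macrophages were lower by 0.51 (SE 0.050, limma adjusted p = 4.48e-06) in wild type and by 0.59 (SE 0.076, adjusted p = 2.98e-05) in knockout, and lower in 4 of 4 mice each time. Mean reads in macrophages were 60.8% and 56.9% of those in monocytes. By genotype the differences were -0.02 (95% interval -0.15 to 0.12) in macrophages and 0.06 (-0.09 to 0.21) in monocytes, neither called.

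Fcgr3 encodes a low-affinity activating receptor for immune complexes. Its wild-type libraries had 20889, 21688, 20164 and 19934 reads in macrophages and 24404, 31514, 28135 and 27719 in monocytes. In knockout, 16692, 19056, 20532 and 16848 were read in macrophages and 25901, 25342, 28138 and 26135 in monocytes. Macrophages and monocytes did not overlap in either genotype. The difference was -0.31 (adjusted p = 0.00052) in wild type and -0.38 (adjusted p = 0.00016) in knockout. Knockout macrophages averaged 88.5% of wild-type reads, and 3 of 4 knockout libraries lay below all wild-type libraries. That difference of -0.13 (95% interval -0.24 to -0.01) had an unadjusted p of 0.031 and did not pass (limma adjusted p = 0.19).

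Fcgr4 encodes an activating receptor of mice for IgG2a and IgG2b. Wild-type macrophages had 3788, 3474, 3349 and 2626 reads and wild-type monocytes 5059, 5231, 5935 and 4271. Knockout macrophages had 2803, 3366, 5285 and 3356 reads and knockout monocytes 4351, 3715, 5248 and 3776. The wild-type groups did not overlap. The knockout groups did, with the macrophage library of mouse 8 above the highest monocyte library. Macrophages were lower by 0.45 in wild type (SE 0.088, limma adjusted p = 0.0012). In knockout mice the difference was -0.17 (SE 0.14, adjusted p = 0.32), and without the mouse 8 macrophages it was -0.30 (adjusted p = 0.014). The difference between these cell-type differences, 0.29, did not pass its own test (95% interval -0.08 to 0.66, limma adjusted p = 0.59).

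Monocyte libraries also held more reads of marker lists of other Fc receptor bearing cells. The summed 9 neutrophil markers ranged between 7064 and 12196 in monocytes and between 1556 and 2107 in macrophages, with mean Ly6g between 0 and 1.65 in the 4 groups. The summed 8 natural killer cell markers ran from 542 to 1099 in monocytes and from 139 to 481 in macrophages. All 9 neutrophil and all 8 natural killer markers had reads in monocytes of each genotype, though some had very few. The largest means in wild-type monocytes were Csf3r (4086) and Mmp8 (3416) for neutrophils and Klrk1 (542) for natural killer cells. Neither list overlapped between the cell types, where 57.6% of single genes in wild type and 55.2% in knockout did not overlap. The part of either list in the receptor differences was not tested.

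**Figure D2:**
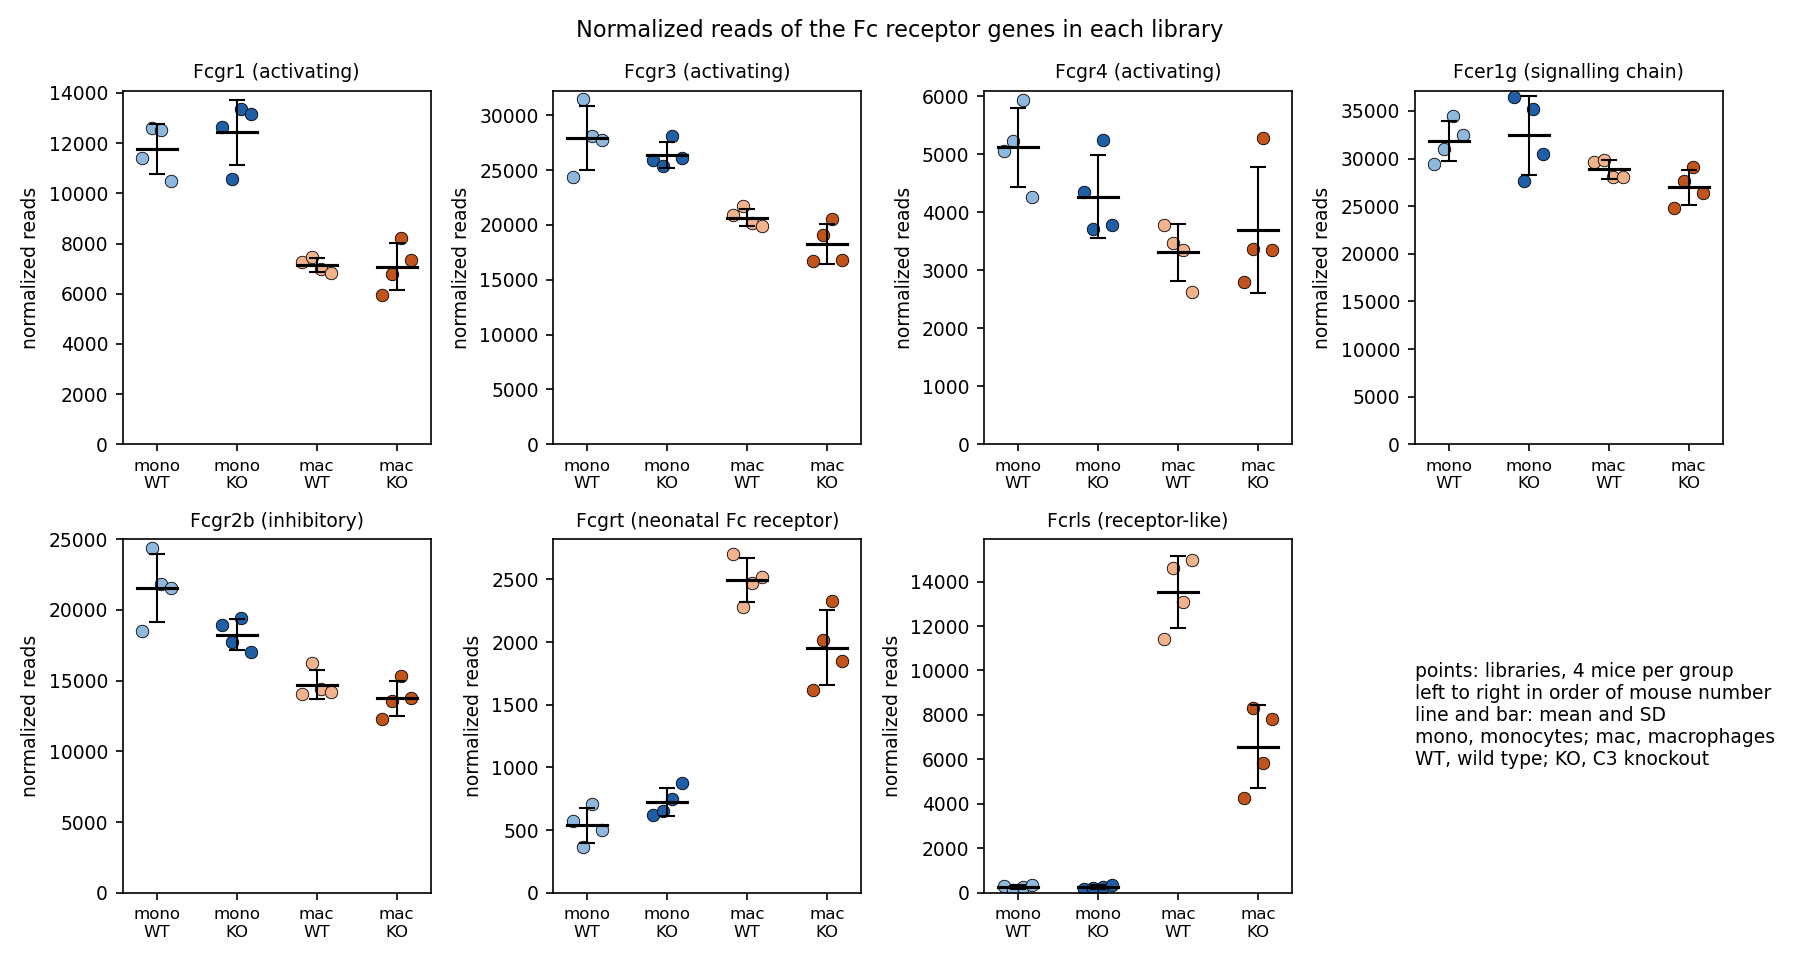
Normalized reads (y axis, from 0) of the 7 genes in each library by group (x axis: mono, monocytes; mac, macrophages; WT, wild type; KO, C3 knockout), with the mean and SD over 4 mice. Fcgr1, Fcgr3 and Fcgr2b sit higher in monocytes without overlap, and Fcgrt and Fcrls sit higher in macrophages, where Fcrls falls from a mean of 13531 to 6562 in knockout.

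Fcer1g, the chain shared by the activating receptors, had the smallest difference between cell types in wild-type mice. Its reads were 29588, 29862, 28018 and 28026 in wild-type macrophages and 29474, 31005, 34430 and 32515 in wild-type monocytes. Knockout macrophages had 24813, 27670, 29098 and 26379 and knockout monocytes 36496, 27651, 35177 and 30436. The groups overlapped in both genotypes, and macrophages were lower in 3 of 4 mice of each. In wild type the difference was -0.10 (SE 0.047, limma adjusted p = 0.078), and it passed without monocyte mouse 1 (-0.13, adjusted p = 0.027). In knockout it was -0.19 (SE 0.071, limma adjusted p = 0.038), a call that was lost in 7 of 14 alternatives. These were TMM scaling (adjusted p = 0.059), the fit to recovered reads by voom (adjusted p = 0.052) and the fits without the macrophages of mice 6 (0.095), 7 (0.062) or 9 (0.084) or the monocytes of mice 6 (0.11) or 8 (0.10). Genotype differences were -0.07 in macrophages and 0.01 in monocytes, with 95% intervals of -0.17 to 0.03 and -0.14 to 0.17.

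Fcgr2b encodes the inhibitory receptor. Reads were 14023, 16220, 14386 and 14211 in wild-type macrophages and 18518, 24409, 21812 and 21552 in wild-type monocytes. Knockout macrophages had 12290, 13569, 15292 and 13800, and knockout monocytes 18902, 17702, 19441 and 16997. The cell types did not overlap in either genotype, while the genotypes overlapped in both cell types. Macrophages were lower by 0.39 in wild type (limma adjusted p = 0.00018) and by 0.29 in knockout (adjusted p = 0.000997). Knockout monocytes averaged 84.6% of wild-type reads, a difference of -0.17 (95% interval -0.32 to -0.02) with an unadjusted p of 0.026 and a limma adjusted p of 0.21. In the authors' deposited table the same contrast was -0.24 with an unadjusted p of 0.0075 and an adjusted p of 0.069.

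The inhibitory and activating transcripts were also set against each other inside each library, as the ratio of normalized reads. No test was made of these ratios. The Fcgr3 to Fcgr2b ratio was 1.32, 1.29, 1.29 and 1.29 in wild-type monocytes and 1.37, 1.43, 1.45 and 1.54 in knockout monocytes, which did not overlap. In macrophages it was 1.41 ± 0.063 (SD, n = 4) in wild type and 1.33 ± 0.078 (SD, n = 4) in knockout, and the ranges overlapped. For Fcgr1 to Fcgr2b, the monocyte values were 0.548 ± 0.058 in wild type and 0.682 ± 0.073 in knockout (SD, n = 4 each), and wild-type mouse 1 at 0.616 overlapped with knockout mouse 7 at 0.597. Fcer1g to Fcgr2b was 1.49 ± 0.15 and 1.77 ± 0.15 in the same groups, again with overlap, and 1.97 in macrophages of both genotypes. For Fcgr4 to Fcgr2b the group means lay between 0.225 and 0.266, and all groups overlapped. Of the 8 comparisons of genotypes over these 4 ratios, the Fcgr3 to Fcgr2b ratio in monocytes was the single one without overlap. For single genes in monocytes, 11.1% of all genes tested did not overlap between the genotypes. Fcgr3 and Fcgr2b are also the pair that shares the 129-base run shown above, and the part of shared reads in this ratio was not tested.

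**Figure D3:**
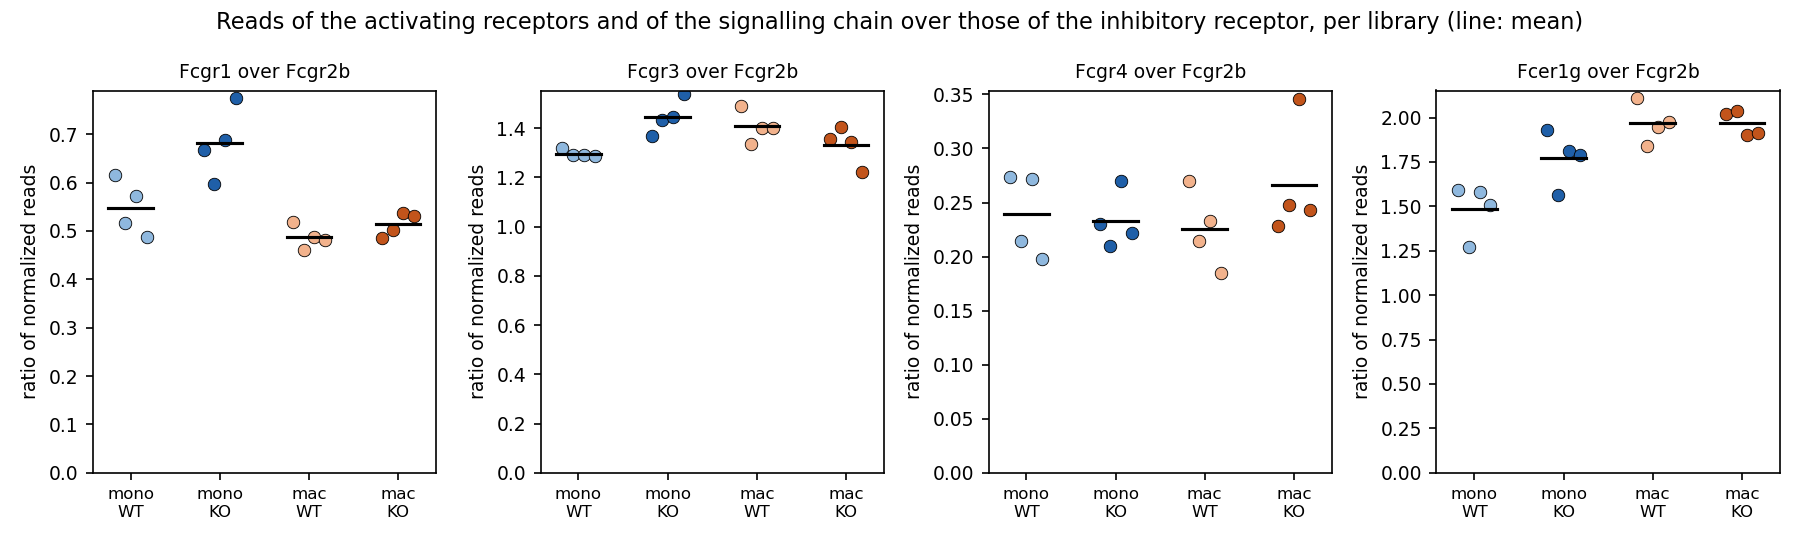
Ratio of normalized reads of Fcgr1, Fcgr3, Fcgr4 and Fcer1g over Fcgr2b (y axes, from 0) in each library by group (x axis: mono, monocytes; mac, macrophages; WT, wild type; KO, C3 knockout), with the mean of 4 mice as a line. In monocytes the Fcgr3 ratio lies between 1.29 and 1.32 in wild type and between 1.37 and 1.54 in knockout.

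Fcgrt, the heavy chain of FcRn, went the other way from the signalling receptors. It had 2706, 2279, 2476 and 2524 reads in wild-type macrophages and 574, 366, 704 and 504 in wild-type monocytes. Knockout macrophages had 1618, 2014, 2332 and 1853 reads and knockout monocytes 624, 651, 750 and 874. Every macrophage library lay above every monocyte library, and the monocyte mean was 0.215 of the macrophage mean in wild type and 0.371 in knockout. The log2 differences were 1.59 (SE 0.11, limma adjusted p = 1.1e-06) and 1.02 (SE 0.092, adjusted p = 1.6e-06). Loss of C3 went with opposite signs in the cell types: -0.27 in macrophages (95% interval -0.44 to -0.11, limma adjusted p = 0.062) and 0.30 in monocytes (0.04 to 0.57, adjusted p = 0.22). In macrophages 3 of 4 knockout libraries lay below all wild-type libraries, and without mouse 8, the highest, the difference was -0.34 and passed (adjusted p = 0.010). No other alternative called it, and the limma fit of all 16 libraries gave an adjusted p of 0.22. In the authors' deposited table the macrophage contrast was -0.35 with an adjusted p of 0.22. The monocyte contrast there was 0.43 with an unadjusted p of 0.0091 and an adjusted p of 0.078.

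The difference of the Fcgrt effects, -0.57 (SE 0.16), had an unadjusted p of 0.0019 and an adjusted p of 0.12 in the fit of all 16 libraries with limma. With the mouse as a replicate block the same difference passed (adjusted p = 0.028), and it also passed without wild-type monocyte mouse 3 (-0.67, adjusted p = 0.046). In this test 0 of 7 members were called, where 0.617% of 13134 genes were called (47 higher and 34 lower, or 29 and 47 with TMM scaling). At an unadjusted p under 0.05 there were 2 members, Fcgrt and Fcrls, and the voom fit called 0. B2m, the light chain partner of FcRn, was 0.15 higher in macrophages than in monocytes of wild-type mice (limma adjusted p = 0.020), a far smaller difference than that of Fcgrt. In knockout mice B2m was not called, with means of 76681 in macrophages and 77827 in monocytes.

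Fcrls showed the largest differences of the 7 genes in each comparison except knockout against wild type in monocytes. Wild-type macrophages had 11419, 14628, 13085 and 14993 reads and wild-type monocytes 311, 128, 249 and 348. Knockout macrophages had 4273, 8328, 5837 and 7812 reads and knockout monocytes 151, 218, 260 and 368. In macrophages the genotypes did not overlap, and the highest knockout library lay well below the lowest wild-type library. In monocytes they overlapped throughout. Mean reads in macrophages were 52.2-fold those in monocytes in wild type and 26.3-fold in knockout, with log2 differences of 4.06 (SE 0.15, limma adjusted p = 5.02e-08) and 3.23 (SE 0.20, adjusted p = 2.7e-06). By the size of the difference, Fcrls ranked 32 of 12769 genes in wild type and 63 of 12772 in knockout.

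In knockout macrophages Fcrls fell to 48.5% of the wild-type mean, from 13531 ± 1633 to 6562 ± 1866 reads (SD, n = 4 each). The log2 difference was -0.86 (SE 0.17, 95% interval -1.24 to -0.47, limma adjusted p = 0.024), rank 184 of 12568 genes by size, where 3.13% of genes were called lower and 13.1% had no overlap. In the authors' deposited table it was -1.04 with an adjusted p of 0.015. The call was lost without wild-type mouse 2 (adjusted p = 0.076), 3 (0.070) or 4 (0.072) and without knockout mouse 8 (0.077), each a fit with 7 libraries, while the difference in those fits lay between -0.87 and -0.81. Without knockout mouse 6, the lowest library, it was -0.71 and passed. In monocytes the difference was -0.02 (95% interval -0.43 to 0.38). The difference of the effects, -0.83, did not pass (95% interval -1.41 to -0.25, unadjusted p = 0.0082, limma adjusted p = 0.23, and 0.090 with the mouse as a block).

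Some genes of the macrophage and microglia marker lists were lower in knockout macrophages, as Fcrls was. Summed reads of the 10 macrophage markers were 819459 to 960433 in wild-type and 656525 to 785801 in knockout macrophages, with 4 of 10 genes called lower and 0 higher, beside 3.13% and 2.57% of all genes, and knockout at 81.5% of the wild-type mean. Among them Mrc1 (-0.30), Maf (-0.38) and Apoe (-0.42) had the smallest adjusted p. The macrophage sum followed Apoe, with means of 451542 in wild type and 305476 in knockout, and 6 of the 10 genes were not called. For the 7 microglia markers, of which Sall1 was not in the matrix, the sums were 58900 to 63816 and 52582 to 57463, knockout being at 89.2%, with 4 of 5 tested genes lower, beside the same 3.13%. The microglia genes Gpr34 (-0.44), Olfml3 (-0.34) and Tmem119 (-0.25) were called. Fcrls was thus lower than either list as a share of wild type, and neither list had a gene at 0 in macrophages.

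Lists of other cells moved too in knockout macrophages. Dendritic cell, T cell and red blood cell sums were lower without overlap, at 81.9%, 46.3% and 25.4% of wild type. The red blood cell sum was also lower without overlap in monocytes, at 35.3%. The other sums overlapped between the genotypes in monocytes, but single markers were called there by limma. Higher in knockout monocytes were Cd209a (means of 9.12 in wild type and 421 in knockout, adjusted p = 0.0042), Retnlg (31.3 and 272, adjusted p = 0.0079) and Kdr. Lower were Hp, P2ry12 and Itgax. In macrophages, B cell, endothelium and mast cell sums were higher without overlap, at 225%, 227% and 645%, where 13.1% of single genes did not overlap between the genotypes. These sums were small beside the macrophage list: 47.0 to 62.5 against 102 to 131 reads for T cells, 145 to 242 against 428 to 1272 for red blood cells, 137 to 205 against 58.3 to 104 for B cells, and 914 to 1100 against 362 to 559 for endothelium. The dendritic cell sum ran from 4514 to 5637 in knockout and from 5685 to 6959 in wild type, most of it Itgax, and the mast cell sum, from 178 to 328 against 24.7 to 48.9, was almost all Kit. The endothelium sum followed Kdr, with means of 272 in wild type and 794 in knockout, the 1 called of 4 tested. The B cell sum followed Cd79b, at 51.5 and 140.01, and the T cell sum Cd4, at 73.9 and 28.6. The part of these cells in the Fcrls, Fcgrt and Fcgr2b values was not tested.

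Set against each other per kilobase of the main transcript, Fcer1g and Fcgr3 kept their places above the other genes in all groups. The other genes changed places between groups. Fcer1g was highest, at 42839 ± 1469 reads per kilobase in wild-type macrophages and 47264 ± 3143 in wild-type monocytes (SD, n = 4). Fcgr3 followed at 15344 ± 588 and 20744 ± 2158. The chain therefore stood above each receptor it serves. Fcrls changed place most, from last in monocytes (114 ± 42.3 per kilobase) to the third place in wild-type macrophages (5953 ± 718) and the fifth in knockout macrophages (2887 ± 821). In knockout macrophages Fcrls, Fcgr4 (2948 ± 866) and Fcgr1 (2732 ± 363) did not differ beyond their spread. In wild-type macrophages Fcgr1 (2760 ± 108) and Fcgr4 (2635 ± 391) did not either. Fcgrt was last in macrophages, at 1410 ± 99.1 in wild type. Fcgr2b, with a transcript of 3544 bases and a coding part of 1023, was the fourth in wild-type macrophages by transcript length and the third by coding length.

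Across mice, the knockout macrophage libraries kept a similar order in most of the 7 genes. How often these libraries rank lowest or highest over all genes was not counted. Mouse 6 had the lowest value of the 4 knockout macrophage libraries in 7 of 7 genes, and mouse 8 had the highest in 6 of 7, all but Fcrls. Monocytes of mouse 6 were lowest for Fcgrt and Fcrls only, and those of mouse 8 were highest in 4 of 7 genes. Mouse 8 macrophages had 160% of the wild-type mean of Fcgr4 but 43.1% of that of Fcrls, so a high library for the signalling receptors was not high for Fcrls. Mouse 6 macrophages had 80.8% to 85.9% of the wild-type means of Fcgr1, Fcgr3, Fcgr4, Fcer1g and Fcgr2b, 64.8% for Fcgrt and 31.6% for Fcrls. The summed macrophage markers were also lowest in mouse 6 (656525) and highest in mouse 8 (785801) of the knockout macrophages, and their part in this order was not tested.

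**Figure D4:**
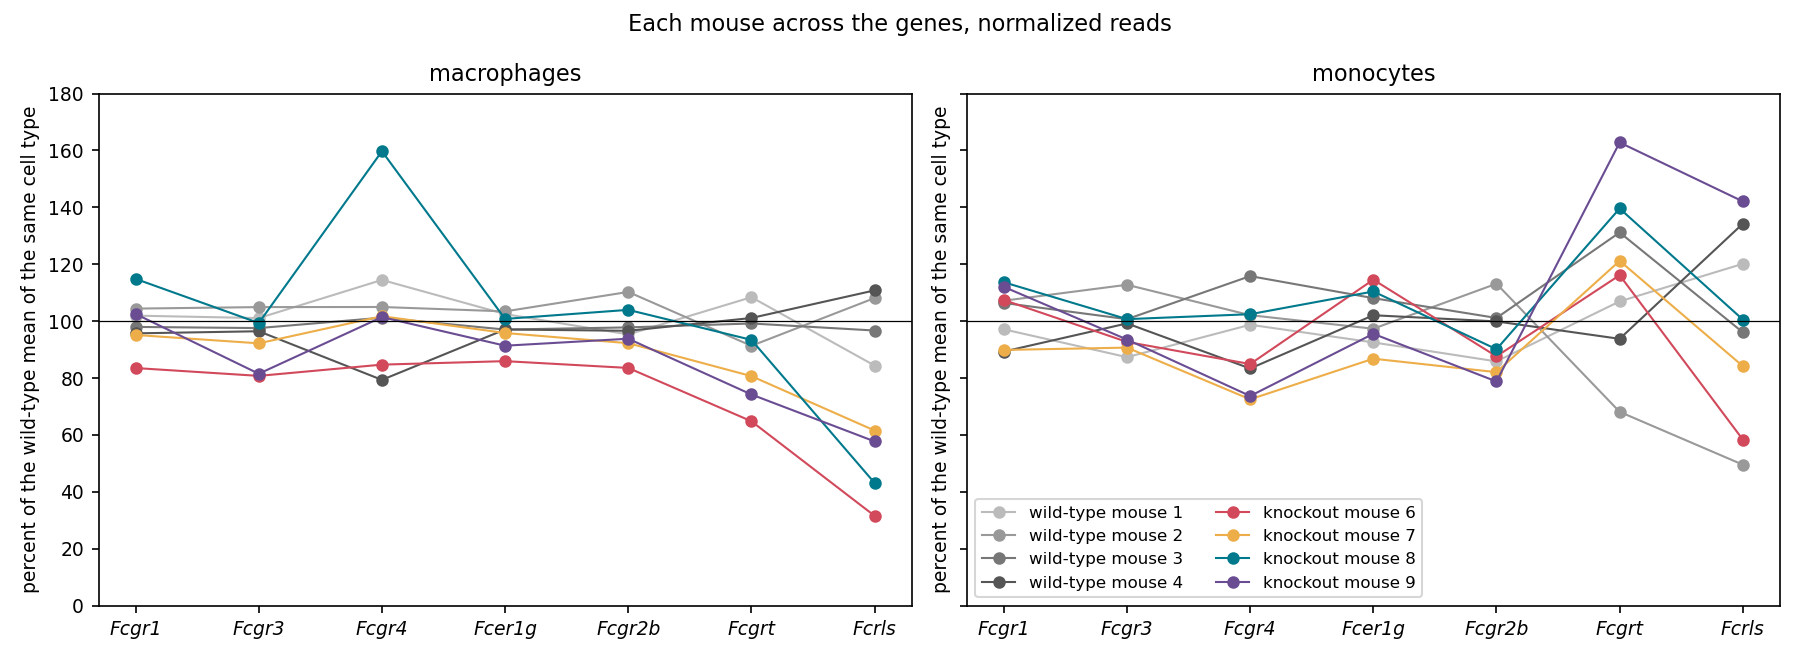
Normalized reads of each mouse as a percentage of the wild-type mean of the same cell type (y axis) across the 7 genes (x axis), in macrophages (left) and monocytes (right), with 1 line per mouse. Knockout mouse 6 is the lowest knockout line for all 7 genes in macrophages, and all 4 knockout lines drop at Fcrls.

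The genes whose pattern over the 16 libraries was nearest to each member were found by the root mean square (RMS) difference of centred log2 values over 11775 genes. The measure is a description of the libraries and carries no test. Nearest to Fcgr1 were Ly6e (0.056) and Irf9 (0.075), interferon-responsive genes. For Fcgr3 they were Stat6 (0.060) and Map1lc3b (0.060), for Fcgr2b Ostf1 (0.057) and Zfand2b (0.058), and for Fcer1g Cox5b (0.039) and Tmem179b (0.048). Fcgr4 had no near match, with Cd69 at 0.13 and H2-Q7 at 0.13 where the RMS of Fcgr4 itself was 0.24. Nearest to Fcgrt were Nrp1 (0.12) and Pdlim4 (0.13), against an own RMS of 0.69.

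Nearest to Fcrls were Gas6 (0.22), a ligand of the TAM receptors that take up dying cells, and Slco2b1 (0.36), an organic anion transporter, against an own RMS of 1.86. Mean Gas6 reads were 1933 in wild-type and 716 in knockout macrophages and 24.8 and 29.8 in monocytes. Slco2b1 had 1614 and 964 in macrophages and 58.9 and 17.7 in monocytes. Both were called lower in knockout macrophages, Gas6 by -1.14 (limma adjusted p = 2.3e-05) and Slco2b1 by -0.60 (adjusted p = 0.024). Both genes were picked for their likeness to Fcrls over the same libraries. Their calls in macrophages are therefore not independent of the Fcrls difference and lend it no support. In monocytes Slco2b1 was also lower in knockout (-0.85, limma adjusted p = 0.038), where Gas6 (0.01) and Fcrls were not called.

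**Figure D5:**
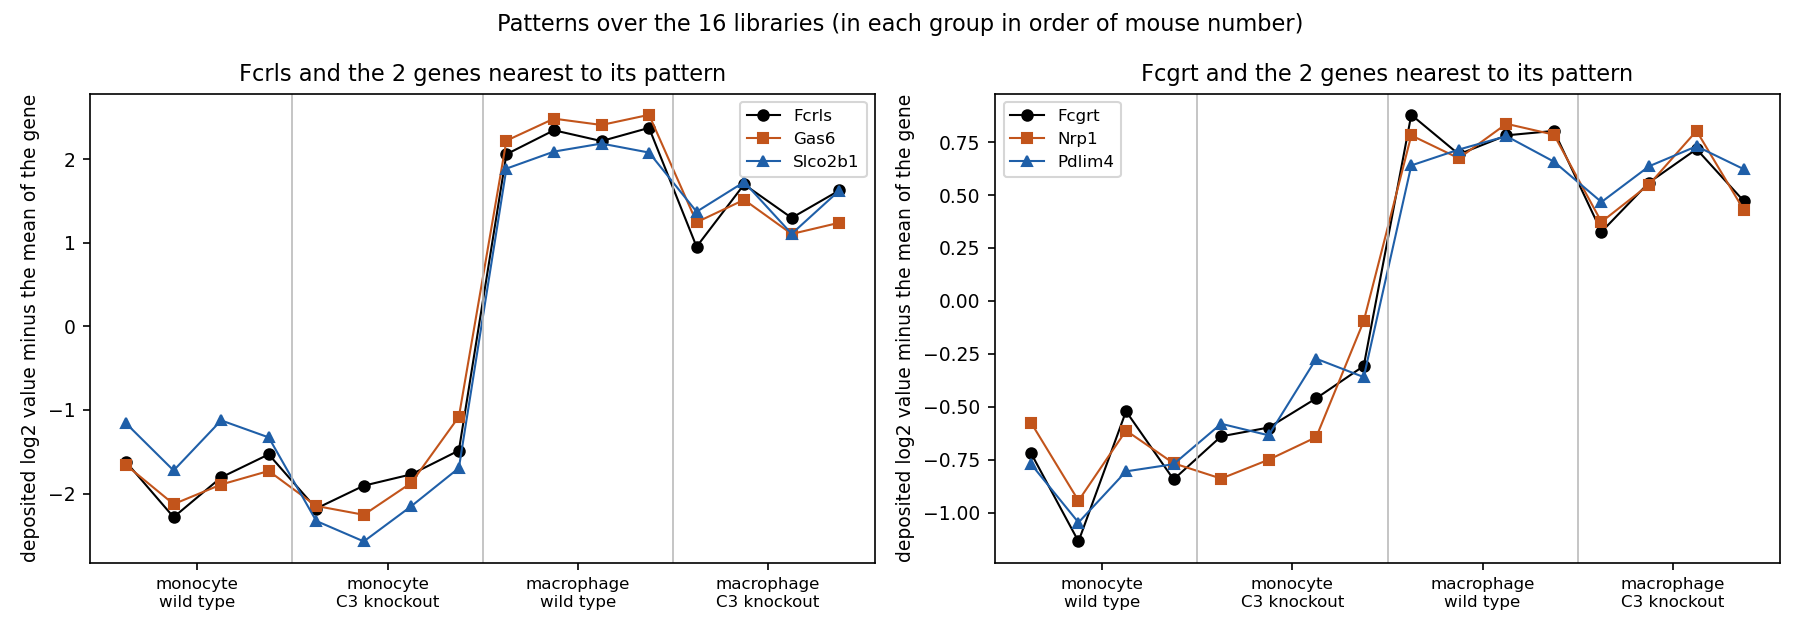
Deposited log2 values minus the mean of each gene (y axis) in the 16 libraries by group (x axis) for Fcrls and Fcgrt with the 2 genes nearest to each. Fcrls, Gas6 and Slco2b1 are high in wild-type macrophages, lower in knockout macrophages and lowest in monocytes.

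The signalling genes other than Fcgr1 are neighbours. On chromosome 1 (GRCm38, GENCODE M21), Fcgr2b (chr1:170958617-170976547), Fcgr4 (chr1:171018920-171029761), Fcgr3 (chr1:171051174-171064935) and Fcer1g (chr1:171229572-171234365) lie in this order. Fcgr1 (chr3:96282909-96293969) and Fcrls (chr3:87250758-87263738) lie on chromosome 3 and Fcgrt (chr7:45092990-45103851) on chromosome 7. All are protein coding and on the minus strand except Fcgr4. Antisense Gm38204 overlaps Fcgr2b and had means of 3.46 to 8.16 reads beside 13738 to 21573 for Fcgr2b. Antisense Gm45669 overlaps Fcgrt, was not in the matrix, and cannot be told apart from Fcgrt in libraries without strand. Rcn3 beside Fcgrt was not called by genotype in either cell type, nor was Kirrel beside Fcrls, but both had few reads. Mean Kirrel was 26.2 in wild-type and 13.4 in knockout macrophages. Cd5l, on the other side of Fcrls, had 27.6 and 10.5 and was not tested by genotype. Txnip, to the right of Fcgr1, was called higher in knockout monocytes (0.50, limma adjusted p = 0.026). None of the other tested flanking genes was called by genotype, members aside.

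Among the other Fc receptors and receptor-like genes, 10 of 13 were in the matrix and 4 were tested, Fcrl1, Fcrla, Fcrlb and Trim21. By genotype, 0 were called in either cell type by limma or by voom, where limma called 5.70% of all genes in macrophages and 3.32% in monocytes. At an unadjusted p under 0.05 there was 1 of 4 in macrophages and 0 in monocytes. Fcrlb, an intracellular Fc receptor-like protein, had a mean of 891 reads in wild-type macrophages and 2210 in wild-type monocytes, a difference of -0.93 (limma adjusted p = 1.8e-06). Fcrla (-0.99) and Trim21 (-0.19), a cytosolic antibody receptor, were also lower. Of the adaptor chains, Tyrobp was lower in macrophages by 0.25 and Hcst by 0.31 in wild type, as were the receptors.

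Downstream of the activation motif, the shares called were set beside those over all genes. Of the 29 genes of activating signalling, 28 were tested in wild-type mice, and 7 were higher and 14 lower in macrophages, beside 31.7% of all genes in each direction, with a median of -0.12 against -0.01 over all genes. Blnk, an adaptor of Syk, was 3.26 higher (limma adjusted p = 2.5e-10), and the Src family kinase Fgr was 0.93 lower (adjusted p = 2.03e-08). In knockout mice 8 of 29 were higher and 13 lower, beside 31.0% and 29.6%. Between genotypes, 2 of 28 rose in macrophages, Vav3 (0.27) and Fyn (0.25), and 1 fell, the kinase subunit Pik3cg (-0.14), beside 2.57% higher and 3.13% lower over all genes. In monocytes 0 of 29 were called by limma and 0 by voom, with 6 at an unadjusted p under 0.05, where 1.40% of genes were higher and 1.92% lower (180 and 247 genes, or 229 and 207 with TMM scaling).

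Of the 13 genes of inhibitory signalling, 2 were higher and 7 lower in wild-type macrophages than in monocytes. That is 9 of 13, where 63.4% of all genes were called, 31.7% in each direction. The adaptor Dok2 was at -1.07, Cblb at -0.84 and the receptor Pirb at -0.50. In knockout mice 1 was higher, Sirpa (0.47), and 6 were lower. That is 7 of 13, where 60.5% of all genes were called (31.0% higher and 29.6% lower). By genotype, the inhibitory receptor Lilrb4a rose by 0.32 in macrophages (limma adjusted p = 0.013) and the phosphatase Inppl1 (SHIP-2) by 0.61 in monocytes (adjusted p = 0.0044), 1 of 13 each. Over all genes, 5.70% were called between genotypes in macrophages and 3.32% in monocytes. Of the 23 genes of the phagocytic actin machinery, 3 were higher and 11 lower in wild-type macrophages, and 4 and 10 in knockout. That is 14 of 23 each time, where 63.4% and 60.5% of all genes were called. Lower calls made up 31.7% of all genes in wild type and 29.6% in knockout, smaller shares than in this list. That lean to lower values was not tested. Between genotypes 0 of 23 were called by limma or voom in macrophages, with 4 at an unadjusted p under 0.05, and 1 of 23 in monocytes, the kinase Pak1 (0.26), beside 5.70% and 3.32% of all genes.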

How the data were processed

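RNA-seq was analysed from 16 libraries, made per the labels' protocols with the SMART-Seq v4 kit, which does not mark strand, from 5 ng of RNA. The submitters' processing notes name STAR 2.7.2b, bcl2fastq 2.19.0.316, the build GRCm38 and DESeq2. Which annotation and counter served is not given in these sources. The deposited expression matrix holds log2 values of 30819 genes, as the authors transformed them. Its header names no transform, and its values behaved as a regularized logarithm. Per the file headers, the authors also deposited a table per cell type with a base mean (a signal, the mean of reads divided by size factors), log2 fold changes with standard errors, a test statistic (a score), and p-value columns. Fold changes were turned to knockout minus wild type.

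The members and gene lists were chosen with earlier results of these data known. Reads were recovered by inverting the transform. For 20443 genes (base mean 1 or more), 81.8% of values came out whole to within 0.05 reads, but 41.7% in the class of highest base means, where all 7 members lie, and the recovered means of the members differed from the deposited base means by at most 0.02%. Limma 3.58.1 (R 4.3.3, trend and robust) was fitted to the deposited values over all genes with a linear value of at least 10 in at least 4 of the fitted libraries. Comparisons of 2 groups were fitted on their 8 libraries, the difference of knockout effects on 16. The threshold was an adjusted p (Benjamini-Hochberg) of 0.05. Exact permutation of 4 against 4 cannot go below p = 0.0286 (two-sided), so the p-values rest on the spread shared across genes. The limma and recovery steps were tested on simulated data. The limma simulation used log2(normalized reads + 1) and the same dispersion for every gene, so it does not check the p-values on the deposited scale. Replicates are separate mice. Titles give the same mouse for both cell types, which pairs them. Deviations of both libraries of a mouse correlated at 0.031 to 0.417 in wild-type mice and 0.052 to 0.211 in knockout mice. Those of different mice correlated at -0.323 to 0.188 in wild type and -0.227 to 0.136 in knockout, so the ranges overlapped. No 2 libraries were copies.

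Named genes were the 7 members, the 2 genes nearest to each in pattern, and in each list the called genes with the 3 smallest adjusted p. Gene positions, lengths and coding sequences came from GENCODE M21, and promoters from RefSeq (GRCm38.p6). Alternatives were no filter, TMM scaling, log2(normalized reads + 1), all libraries in 1 fit, the mouse as a block, each library left out, the authors' deposited table and, chosen after seeing the data, voom on the recovered reads. Genes C3, Itgax, Adgre1, Ly6c2 and Ly6g are also named as checks of the labels and gates. Rcn3, Kirrel, Cd5l, Txnip, Gm38204 and Gm45669 are named as neighbours. They were outside the rule.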

Additional observations from a re-analysis of the deposited data

Results flagged for a closer look

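Of 28 groups of values, the 7 genes in 4 groups of 4 libraries, 1 held a library far from the others. Fcgr2b in wild-type macrophages had 16220 normalized reads in mouse 2, where the other libraries lay between 14023 and 14386. The gap to the nearest library was 0.835 of the whole range of the group, just above the Dixon limit for 4 samples. Chance flags about 1 in 20 groups. Without mouse 2, Fcgr2b was not called between genotypes either.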

How the results depend on the processing

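Over 35 results of the 7 genes and 539 alternatives, 515 kept direction and side of the threshold, 11 lost a call, 5 gained one and 8 changed sign. The sign changes were all in genotype differences that were not called in either fit, with 1 library left out. Fcgr1 in macrophages ranged over these fits from -0.068 to 0.039, Fcgr4 in macrophages from -0.037 to 0.18, Fcer1g in monocytes from -0.028 to 0.068 and Fcrls in monocytes from -0.18 to 0.090. The changes of a call concern Fcrls and Fcgrt in macrophages, Fcer1g between cell types, Fcgr4 between cell types in knockout mice and the difference of the Fcgrt effects, with values given beside each result. The fits named there without 1 library have fewer samples, and the cause of the other changes was not tested. Against 717 genes called between genotypes in macrophages, leaving out 1 library gave 458 to 656, the lowest without wild-type mouse 2, and 0 or 1 members. In monocytes, against 427, the fit of all 16 libraries gave 981, 1329 came from the authors' deposited table and leaving out 1 library 237 to 459 (282, 263 and 280 without wild-type mice 2, 3 and 4, and 237 and 243 without knockout mice 8 and 9), with 0 members throughout. The difference of effects, 81 genes, gave 48 by voom, 251 with the replicate block and 48 to 125 without 1 library (lowest without wild-type macrophage mouse 3, highest without knockout monocyte mouse 7), and 1 member with the block, 0 or 1 without 1 library. The block changed no other call of a member. With TMM scaling, 229 genes rose and 207 fell in monocytes, against 180 and 247, and the difference of effects was 29 higher and 47 lower, against 47 and 34. No scaling moved the median of all genes by more than 0.050. The log2 ratio of Fcgr3 to Fcgr2b in wild-type monocytes was 0.40 on the deposited scale. The planned count models on recovered reads were not run, since the deposited values are not counts. With 18689330 reads or more, the scarcest member, Fcrls in monocytes, had at least 128 normalized reads.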
